A study of Mus musculus with 4 samples.

Results

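Endothelial cells, the cells that line blood and lymph vessels, were taken from lung libraries of mice of 4 ages by the transcripts they held. The cells were chosen by measured values, in unique molecular identifiers (UMIs, counted mRNA molecules). A cell counted as endothelial with at least 1 UMI of 3 or more of the 6 genes Pecam1, Cdh5, Cldn5, Egfl7, Kdr and Tie1. It also held no UMI of Ptprc (the leukocyte antigen CD45), Epcam (an epithelial adhesion protein) or Pdgfra (a platelet-derived growth factor receptor of fibroblasts). Only cells with more than 200 but fewer than 5000 genes, no more than 25000 UMIs and a mitochondrial share below 8% were considered. The rule found 163 endothelial cells among 28153 such cells, out of 34037 deposited cell barcodes.

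The lungs came from wild-type C57BL/6 mice labelled male and aged 10 days (NB), 2 months (2 M), 10 months (10 M) and 18 months (18 M), with 1 library per age. The study set the ages side by side to ask how lung cells, fibroblasts above all, differ over the life span. Lungs were dissociated with collagenase D and DNase1, dead cells were removed and 3′ mRNA was counted by droplet sequencing. The number of mice behind each library is not given in the sources used here. With a single library per age there was no test between ages, and differences between mice, libraries and ages cannot be told apart.

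Endothelium forms the barrier between blood and tissue, controls vessel tone and clotting, and admits leukocytes through adhesion molecules of the venous wall. In the mouse lung the alveolar capillary bed holds general capillary cells, which are thought to maintain the bed, and aerocytes, large Car4-high cells spread along the air space. Arteries, veins and lymphatic vessels have endothelium with transcripts of their own. Endothelial cells also lay down a basement membrane of type IV collagen and laminin, and display peptides on MHC molecules to passing T cells.

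The library labelled 18 M did not match its label in the sex genes. Xist, the RNA that coats the inactive X chromosome of female cells, had UMIs in 9 of its 22 endothelial cells, and Y-linked genes had UMIs in 9 others, with no cell holding both and 4 holding neither. Among all cells kept in that library, 3044 of 8377 held Xist UMIs and 3697 held Y-linked UMIs. Both kinds were held by 366 of these cells, and neither by 2002. The NB, 2 M and 10 M libraries had no endothelial cell with an Xist UMI (0 of 54, 0 of 32 and 0 of 55 cells), and of all their kept cells 5, 7 and 20 held one. Cells with Xist and cells with Y-linked transcripts were thus both present in the library labelled 18 M. Many ratios and list medians that rest on it are also given for its 13 endothelial cells without Xist UMIs. Levels within vessel types and some single genes are given for all its cells only. The labels of NB and 18 M were also read against Mest, H19 and Eln, which are abundant in the newborn mouse lung and had 2, 0 and 17 UMIs at NB, against 35, 43 and 1284 UMIs in the library labelled 18 M. Without the richest cell of each gene, Mest, H19 and Eln had 26, 4 and 455 UMIs in the library labelled 18 M, in 11, 3 and 17 cells. Every direction of age drawn from NB or the library labelled 18 M rests on its label.

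The endothelial share of kept cells was 0.847% at NB (54 of 6377 cells, exact Clopper-Pearson 95% interval 0.637% to 1.10%) and 0.578% at 2 M (32 of 5537, 0.396% to 0.815%). It was 0.700% at 10 M (55 of 7862, 0.527% to 0.910%) and 0.263% for the library labelled 18 M (22 of 8377, 0.165% to 0.397%), or 0.244% with Xist cells left out. The share of the library labelled 18 M lay under those of NB and 10 M, with intervals that do not meet. Its interval met that of 2 M only at the edge. Without the exclusion genes the share of the library labelled 18 M was 0.418%, above its interval given here. Every interval given here is at 95% and stands for counting error alone, leaving out the spread between cells and between mice. Cells lost in dissociation and cells absent from the tissue cannot be told apart.

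**Figure D1:**
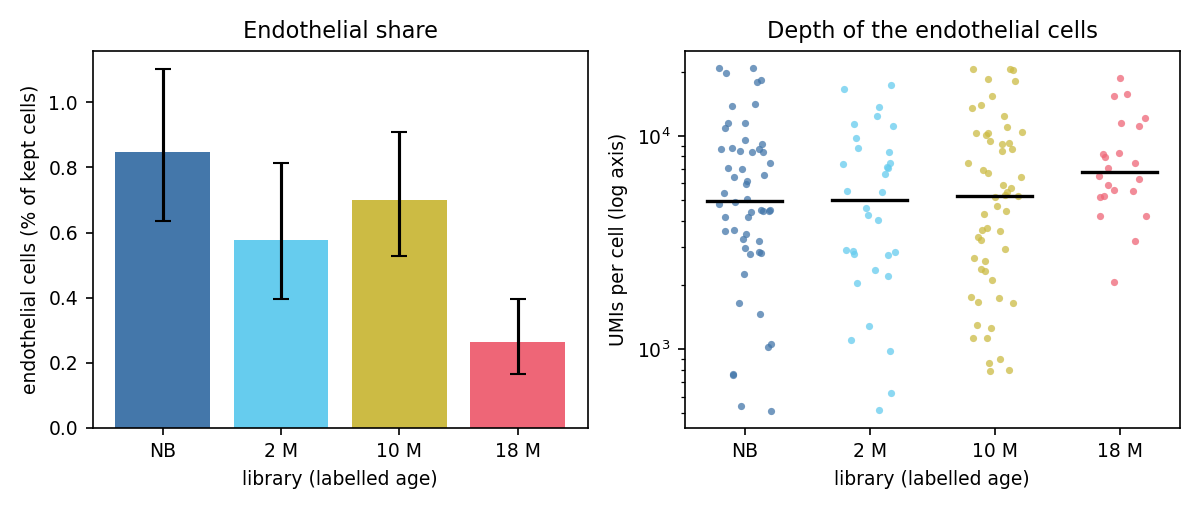
Left, endothelial cells as a percentage of kept cells in each library, with bars for the share and lines for the exact 95% interval; the library labelled 18 M has the lowest share (0.263%) and NB the highest (0.847%). Right, UMIs per endothelial cell on a log axis, 1 point per cell and a line at the median, which lies between 4974 and 6767 UMIs.

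The median endothelial cell had 4974 UMIs at NB, 5022 at 2 M, 5235 at 10 M and 6767 in the library labelled 18 M, and the UMIs of all endothelial cells of a library came to 365074, 194365, 371173 and 177198 in that order. Levels below are the summed UMIs of a gene per 1000000 endothelial UMIs of its library (CPM), so that 1 UMI equals 2.74 CPM at NB, 5.14 at 2 M, 2.69 at 10 M and 5.64 in the library labelled 18 M. Libraries shared 17 to 28 barcodes a pair, and no barcode was endothelial in a pair of libraries.

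Of the 163 cells, 13 held 3 of the 6 rule genes, 25 held 4, 62 held 5 and 63 held all 6, and 18 further cells held 2 and stayed outside. The exclusion genes removed 30 cells that met the other terms, 28 through Ptprc and 2 through Epcam, and 14 of those came from the library labelled 18 M. The rule genes themselves are a description of the choice. Pecam1, an adhesion molecule of endothelial junctions (chromosome 11, 106654217 to 106750628, GRCm38), stood at 805 CPM at NB, 1199 at 2 M, 973 at 10 M and 1089 in the library labelled 18 M. Cdh5, the cadherin of those junctions (chromosome 8, 104101625 to 104144511), stood at 1071 CPM at NB, 1389 at 2 M, 983 at 10 M and 1467 in the library labelled 18 M. Cldn5, a tight junction claudin (chromosome 16, 18776847 to 18778262), stood at 808 CPM at NB, 1147 at 2 M, 897 at 10 M and 1642 in the library labelled 18 M. In B cells of the same libraries, which should lack them, the 6 rule genes together came to 66.1 to 121 CPM, against 3827 to 6219 CPM in endothelial cells.

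Transcripts of most other cell types were few. Red cell mRNA was an exception in all libraries, and pericyte and smooth muscle mRNA was one in some cells. Foxj1, Cyp2f2, Sec14l3, Cspg4, Csf3r, Cxcr2 and Fcmr were at 0 UMIs in the endothelial cells of all libraries. The 6 B cell markers summed to 38.3, 82.3, 13.5 and 11.3 CPM in NB, 2 M, 10 M and the library labelled 18 M, against 3473 to 5148 CPM in B cells. The 9 pericyte and smooth muscle markers summed to 874, 278, 612 and 62.1 CPM in the same order. In B cells they came to 165, 124, 11.9 and 35.9 CPM. Their UMIs were in 12, 12, 8 and 4 endothelial cells. The library labelled 18 M had Acta2, Myh11, Pdgfrb and Notch3 at 0. Of 7 alveolar type I markers, Hopx, Clic5 and Pdpn, which endothelium also transcribes, made most of a sum of 445 to 741 CPM. Erythroid genes summed to 23820 CPM at NB, 86132 CPM at 2 M, 19735 CPM at 10 M and 25079 CPM in the library labelled 18 M. A single 2 M cell with 17394 UMIs held 6971 of the 7012 Hbb-bs UMIs of the 2 M sum, so the comparisons were repeated without cells with 10% or more haemoglobin UMIs.

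Genes known to mark endothelium that the rule did not use were at similar levels in the 4 libraries. The 27 genes of that list summed to 14594 CPM at NB, 15259.9 CPM at 2 M, 14594 CPM at 10 M and 14058 CPM in the library labelled 18 M, and to 282 to 455 CPM in B cells. Ramp2, a co-receptor for adrenomedullin, stood at 729 CPM at NB, 957 at 2 M, 759.8 at 10 M and 756 in the library labelled 18 M. Emcn, the sialomucin endomucin, stood at 301 CPM at NB, 283 at 2 M, 531 at 10 M and 384 in the library labelled 18 M. The genes that led the contrast with all other kept cells included Ptprb, Aqp1, Sdpr, Tspan7, Pcdh17, Sox7, Sox18, Robo4 and Flt4, which follows from the choice of the cells and has no test.

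Endothelial genes are bound by transcription factors of the ETS family (Erg, Fli1, Ets1), whose core site is GGAA, so promoters were searched for AGGAAG or CGGAAG on either strand. The promoters were RefSeq's on GRCm38.p6, 250 bases before to 50 after the start site. The letters occurred in 11 of the 17 promoters that RefSeq's table gave for 14 of the 27 identity genes outside the rule (64.7%), against 15265 of all 32851 promoters (46.5%). Among rule genes, Egfl7 and Tie1 held them and Cldn5 and Kdr did not. The promoter of Tie1, an orphan receptor of the angiopoietin pathway, is shown with its 3 matches in capitals (chr4:118489800-118490099, minus strand).
Tie1: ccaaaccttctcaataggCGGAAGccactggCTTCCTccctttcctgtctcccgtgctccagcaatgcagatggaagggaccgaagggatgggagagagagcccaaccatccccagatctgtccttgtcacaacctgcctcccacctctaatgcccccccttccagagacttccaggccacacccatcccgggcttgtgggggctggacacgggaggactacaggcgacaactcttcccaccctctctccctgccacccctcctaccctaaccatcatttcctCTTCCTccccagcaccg
A match is a run of letters, not a bound site.

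Vessel types could be told apart within the 163 cells. Clustering gave 6 clusters of 17 to 37 cells, of which 3 were named from markers. An aerocyte-like cluster of 31 cells was led by Tbx2, Fibin, Car4, Emp2, Apln, Chst1 and Ednrb. A lymphatic-like cluster of 21 cells was led by Ccl21a, Mmrn1 and Prox1. A venous-like cluster of 17 cells was led by Ptgs2, with Selp, Vcam1, Procr and Slc6a2 also among its leading genes. The other 3 clusters stayed unnamed, 1 of them with Kit and Gpihbp1 among its leading genes and 1 with Cyp1a1, Iigp1 and Gbp2. Another, with Mgp, Gsn and Tagln, also had Eln, Tpm2, Myl9 and Col1a2 among its leading genes. Its arterial list stood at 12944 CPM, against 298 to 1886 CPM in the other clusters. Only 1 arterial gene was among its leading genes. Leading genes define the clusters and are not a result. The aerocyte-like cluster was the shallowest, with a median of 2036 UMIs.

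Cells with at least 0.5% of their UMIs in the 12 aerocyte genes numbered 5 of 54 at NB (9.26%, 3.08% to 20.3%), 12 of 32 at 2 M (37.5%, 21.1% to 56.3%), 12 of 55 at 10 M (21.8%, 11.8% to 35.0%) and 5 of 22 in the library labelled 18 M (22.7%, 7.82% to 45.4%). The interval of 2 M lay above that of NB and met those of the later ages. The limit of 0.5% was set after the data were seen, and 8 cells in all lay within 2-fold of it. No B cell reached it in any library. After thinning each cell to 1000 UMIs, 14.0% of NB (5.82% to 26.7%), 41.4% of 2 M (23.5% to 61.1%), 27.5% of 10 M and 27.3% of the cells labelled 18 M had 2 or more aerocyte genes, against 59.3%, 62.5%, 69.1% and 86.4% in that order without thinning. By the thinned measure the intervals of 2 M and NB overlapped. At most 0.0819% of B cells did so after thinning (median 3109.5 to 3755 UMIs a B cell and 4974 to 6767 UMIs an endothelial cell).

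For the other vessel types the intervals of all libraries overlapped. By the same limit, 5 cells at NB, 4 at 2 M, 11 at 10 M and 2 in the library labelled 18 M were high in the lymphatic list. The counts in the same order were 9, 5, 6 and 2 for the venous list and 10, 6, 6 and 3 for the arterial list. All 5 venous-high cells of 2 M lay in the cluster with Mgp, Gsn and Tagln. UMIs of 2 or more of Prox1, Mmrn1 and Ccl21a, which mark lymphatic endothelium, were held by 5 cells at NB, 3 at 2 M, 11 at 10 M and 2 in the library labelled 18 M, and each of the 3 genes was found in at most 1.42% of B cells.

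**Figure D2:**
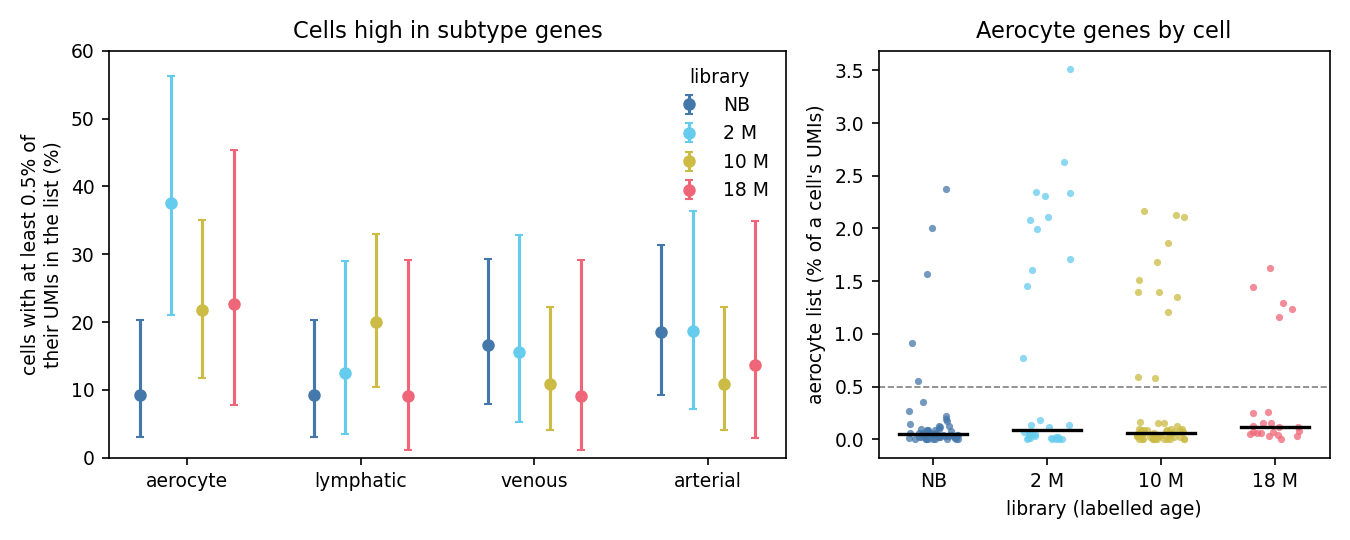
Left, percentage of endothelial cells with at least 0.5% of their UMIs in the aerocyte, lymphatic, venous or arterial gene list, by library, with exact 95% intervals; 2 M has the highest aerocyte share (37.5%) and NB the lowest (9.26%). Right, the share of UMIs in the aerocyte list in each cell, with the median as a line and the 0.5% limit dashed.

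The comparison of the library labelled 18 M with 2 M asked how old endothelium differs from young adult endothelium. MHC class I, MHC class II and Ly6 transcripts were lower in the library labelled 18 M, and elastin, the transcription factor Sox4 and basement membrane transcripts were higher. A gene was called past 2-fold when the log2 ratio of its CPM values, with 0.5 UMIs added to each sum, was at least 1 in size, and genes with at least 30 UMIs in both sums together were compared. Each of the 3 comparisons between ages uses the 2 M library, so they are not independent. Of 2334 genes, 229 were past 2-fold higher (9.81%) and 112 past 2-fold lower (4.8%), with a median log2 ratio of 0.17. Calls that were higher made up 67.2% of all calls, 55.4% with median-ratio size factors, and 58.0% without cells with 10% or more haemoglobin UMIs. Median-ratio scaling moved the median of all genes to 0.07, and the directions given here held under it.

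Of 13 MHC class I genes, 8 could be compared and 6 were past 2-fold lower in the library labelled 18 M, none higher. The share of all genes past 2-fold lower was 4.8%. The list's median log2 ratio was -1.81 (-1.63 without Xist cells). H2-K1, a class I heavy chain (chromosome 17, 33996017 to 34000347), stood at 2293 CPM at NB, 1466 at 2 M, 1460.2 at 10 M and 356 in the library labelled 18 M. The ratio of the library labelled 18 M to 2 M was 0.242 (0.182 to 0.320), and 0.285 without its Xist cells. H2-D1, the other classical heavy chain (chromosome 17, 35262730 to 35267499), stood at 2599 CPM at NB, 1852 at 2 M, 2274 at 10 M and 508 in the library labelled 18 M, a ratio of 0.274 (0.215 to 0.346), or 0.318 without Xist cells. The light chain they share, B2m, stood at 2983 CPM at NB, 1955 at 2 M, 2217 at 10 M and 649 in the library labelled 18 M, a ratio of 0.332 (0.267 to 0.410), or 0.374 without Xist cells. In all 3 genes the library labelled 18 M was lowest and NB highest. H2-Q4, H2-Q6 and H2-Q7, class Ib chains, had ratios of 0.290, 0.0857 and 0.0477. The H2 genes are near copies of one another and reads shared between them may have been lost in counting, so their separate levels are uncertain.

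The lower class I level was found cell by cell. The share of a cell's UMIs in the 13 genes had a median of 1.05% at NB, 0.698% at 2 M, 0.760% at 10 M and 0.194% in the library labelled 18 M, where the highest of the 22 cells reached 0.479%. It was also seen within vessel types, though the aerocyte-high and lymphatic-high groups labelled 18 M include cells with Xist UMIs. The deepest lymphatic-high cell labelled 18 M held 15 Xist UMIs and 78.3% of its group's UMIs. Summed class I levels in aerocyte-high cells were 8457 CPM at NB, 9843 CPM at 2 M, 6099 CPM at 10 M and 1734 CPM in the library labelled 18 M, and in lymphatic-high cells 13798, 4076, 4143 and 1305 CPM in that order. Without the deepest cell of each aerocyte-high group the levels were 11234 CPM at NB, 8720 CPM at 2 M, 9561 CPM at 10 M and 1699 CPM in the library labelled 18 M, where the cell left out of 10 M had held 51.9% of its group's UMIs. Other cell types of that library showed the same order of levels against 2 M: fibroblasts had 1197 CPM in the library labelled 18 M and 2587 CPM in 2 M, B cells 3975 and 5914 CPM, and mural cells (pericytes and smooth muscle) 939.8 and 1861 CPM. A feature of the library and one of endothelium cannot be told apart here.

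Class I promoters of the mouse are known for an enhancer that NF-kappaB binds. The letters GGGG followed directly by ATTCCC, or their reverse complement, occurred in 5 of the 12 class I promoters in RefSeq's table, those of H2-K1 (2 promoters), H2-D1, H2-Q6 and H2-Q7, against 35 of all 32851 promoters (0.107%), and the CCAAT box (CCAAT, or ATTGG on the other strand) in 11 of the 12, against 37.4% of all. Both are shown in capitals for H2-K1 (chr17:34000298-34000597, minus strand) and H2-D1 (chr17:35262844-35263143, plus strand), the pair of heavy chains whose levels are given above.
H2-K1: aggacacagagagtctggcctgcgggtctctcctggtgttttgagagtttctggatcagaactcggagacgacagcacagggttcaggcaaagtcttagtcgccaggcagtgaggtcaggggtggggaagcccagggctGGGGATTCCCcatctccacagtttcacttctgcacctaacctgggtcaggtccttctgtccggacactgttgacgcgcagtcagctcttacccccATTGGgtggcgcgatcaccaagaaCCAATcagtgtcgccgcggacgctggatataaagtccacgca
H2-D1: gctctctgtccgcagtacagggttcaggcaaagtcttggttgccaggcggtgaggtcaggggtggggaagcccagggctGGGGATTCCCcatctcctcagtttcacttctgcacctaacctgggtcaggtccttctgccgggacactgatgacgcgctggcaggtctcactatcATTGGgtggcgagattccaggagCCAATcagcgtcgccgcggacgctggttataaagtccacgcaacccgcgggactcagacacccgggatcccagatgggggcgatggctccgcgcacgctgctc
Each holds 1 NF-kappaB letter run and 2 CCAAT boxes. The NF-kappaB letters were searched because class I promoters are known for the site, and the H2 genes are near copies of one another. Their share is therefore a description and not a result.

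MHC class II, which presents peptides to helper T cells, had the lowest median of the 33 gene lists. All 4 genes compared were past 2-fold lower in the library labelled 18 M, against 4.8% of all genes. The list's median log2 ratio was -4.37 (-3.72 without Xist cells). Cd74, the invariant chain (chromosome 18, 60803848 to 60812652), stood at 2715 CPM at NB, 561 at 2 M, 523 at 10 M and 39.5 in the library labelled 18 M, a ratio of 0.0704 (0.0277 to 0.150), or 0.0677 without Xist cells. H2-Aa, H2-Ab1 and H2-Eb1 had a single UMI each in the library labelled 18 M, against 42, 31 and 36 UMIs in 2 M. The 2 M sums rest largely on a few cells. The class II share of a 2 M cell had a median of 0.0193%, with 14 of 32 cells at 0 and the highest at 0.957%. Single cells of 2 M held 40 and 27 of its 109 Cd74 UMIs. In the library labelled 18 M the median was 0, with 13 of 22 cells at 0. Class II mRNA is abundant in B cells, so its ratio to B cell markers was measured in both kinds of cell. In 2 M, class II UMIs per B cell marker UMI were 14.4 in endothelial cells and 6.15 in B cells, so that 42.8% of the endothelial class II UMIs stood at the B cell ratio. In NB the figures were 116 and 7.64, with 6.61% at the B cell ratio. In the library labelled 18 M they were 5 and 1.84, from 10 class II UMIs in endothelial cells, and B cells too had less class II, with 9494 CPM in the library labelled 18 M and 24608 CPM in 2 M. Leaving out cells with 2 or more UMIs of marker genes of other lineages brought the median to -2.30, and without the exclusion genes it was -0.18.

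The Ly6 genes, small surface proteins that mark mouse endothelium and many leukocytes, were lower as a group. Ly6a, the antigen Sca-1 (chromosome 15, 74994877 to 74998031), stood at 1485 CPM at NB, 1682 at 2 M, 1441 at 10 M and 271 in the library labelled 18 M, a ratio of 0.161 (0.116 to 0.218), or 0.164 without Xist cells. Ly6c1 stood at 920.4 CPM at NB, 1312 at 2 M, 1293 at 10 M and 265 in the library labelled 18 M, a ratio of 0.202 (0.145 to 0.277), or 0.232 without Xist cells. Ly6e lay at the 2-fold limit, with a ratio of 0.494 (0.405 to 0.599), and of 0.499 without Xist cells, when it no longer met the call. The summed Ly6 level was highest in aerocyte-high cells in each library, and theirs too was lower in the library labelled 18 M (3707 CPM) than in 2 M (15040.4 CPM).

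**Figure D3:**
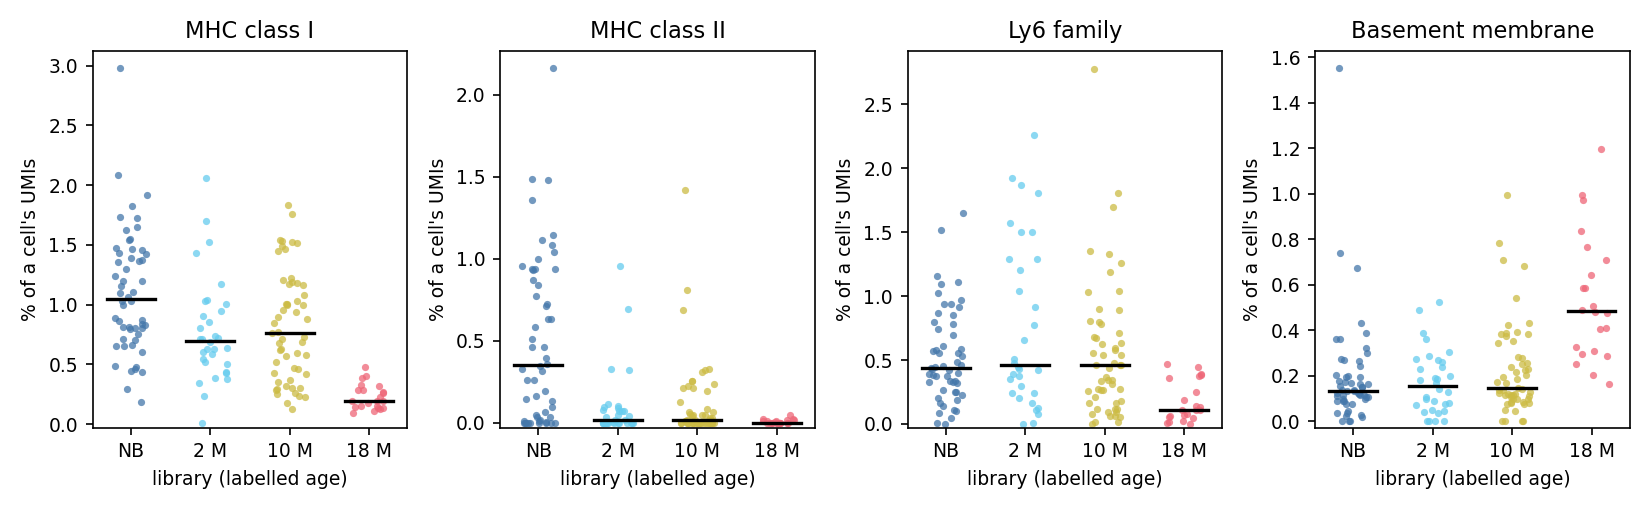
Share of each endothelial cell's UMIs (percent) in the MHC class I, MHC class II, Ly6 and basement membrane gene lists, 1 point per cell, libraries on the horizontal axis and the median as a line. The 22 cells labelled 18 M lie low in the first 3 lists (class I median 0.194%, against 0.698% in 2 M) and high in the basement membrane list (0.482%, against 0.153% in 2 M).

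Basement membrane genes were higher. Of 15 on the list, 8 could be compared, 5 were past 2-fold higher in the library labelled 18 M and none lower. The share of all genes past 2-fold higher was 9.81%. The list's median log2 ratio was 1.43 (1.25 without Xist cells). Col4a1, a chain of type IV collagen (chromosome 8, 11198423 to 11312826), stood at 490.3 CPM at NB, 453 at 2 M, 824 at 10 M and 1569 in the library labelled 18 M, a ratio of 3.47 (2.72 to 4.46), or 2.93 without Xist cells. Its partner chain Col4a2 (chromosome 8, 11312805 to 11449287) stood at 167 CPM at NB, 309 at 2 M, 323 at 10 M and 768 in the library labelled 18 M, a ratio of 2.49 (1.82 to 3.43), or 1.94 without Xist cells. Both chains had their highest level in the library labelled 18 M. Sparc, a collagen-binding matricellular protein, stood at 444 CPM at NB, 437 at 2 M, 544 at 10 M and 1569 in the library labelled 18 M, a ratio of 3.59 (2.80 to 4.63), or 4.30 without Xist cells. Lamc1, a laminin chain, and Fn1, fibronectin, had ratios of 4.94 (2.00 to 14.6), or 3.69 without Xist cells, and 2.98 (1.78 to 5.17), or 3.43 without Xist cells, with Fn1 UMIs in 6 of 22 cells labelled 18 M.

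The median cell gave 0.482% of its UMIs to the list in the library labelled 18 M, while the medians lay between 0.134% and 0.153% at the other ages, and none of the 22 cells was at 0. Col4a1 stood at 2451 CPM in aerocyte-high cells labelled 18 M and 553 CPM in those of 2 M, and at 2105 CPM in lymphatic-high cells labelled 18 M and 122 CPM in those of 2 M, with 2 and 4 cells behind the lymphatic values. In cells high in none of the 3 lists it stood at 568 CPM at NB, 630 CPM at 2 M, 1315 CPM at 10 M and 1277 CPM in the library labelled 18 M, where the last 2 ages had overlapping intervals. Col4a1 and Col4a2 start 21 bases apart on opposite strands, and the promoter of Col4a1 is shown because both chains were higher, with its CCAAT box in capitals (chr8:11312777-11313076, minus strand).
Col4a1: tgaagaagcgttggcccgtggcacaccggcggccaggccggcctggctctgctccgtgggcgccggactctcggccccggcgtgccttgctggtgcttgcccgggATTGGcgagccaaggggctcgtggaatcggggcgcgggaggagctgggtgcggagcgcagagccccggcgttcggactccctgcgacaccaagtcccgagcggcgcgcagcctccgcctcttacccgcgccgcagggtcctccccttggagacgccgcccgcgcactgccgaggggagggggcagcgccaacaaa
The box reads ATTGG on this strand.

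**Figure D4:**
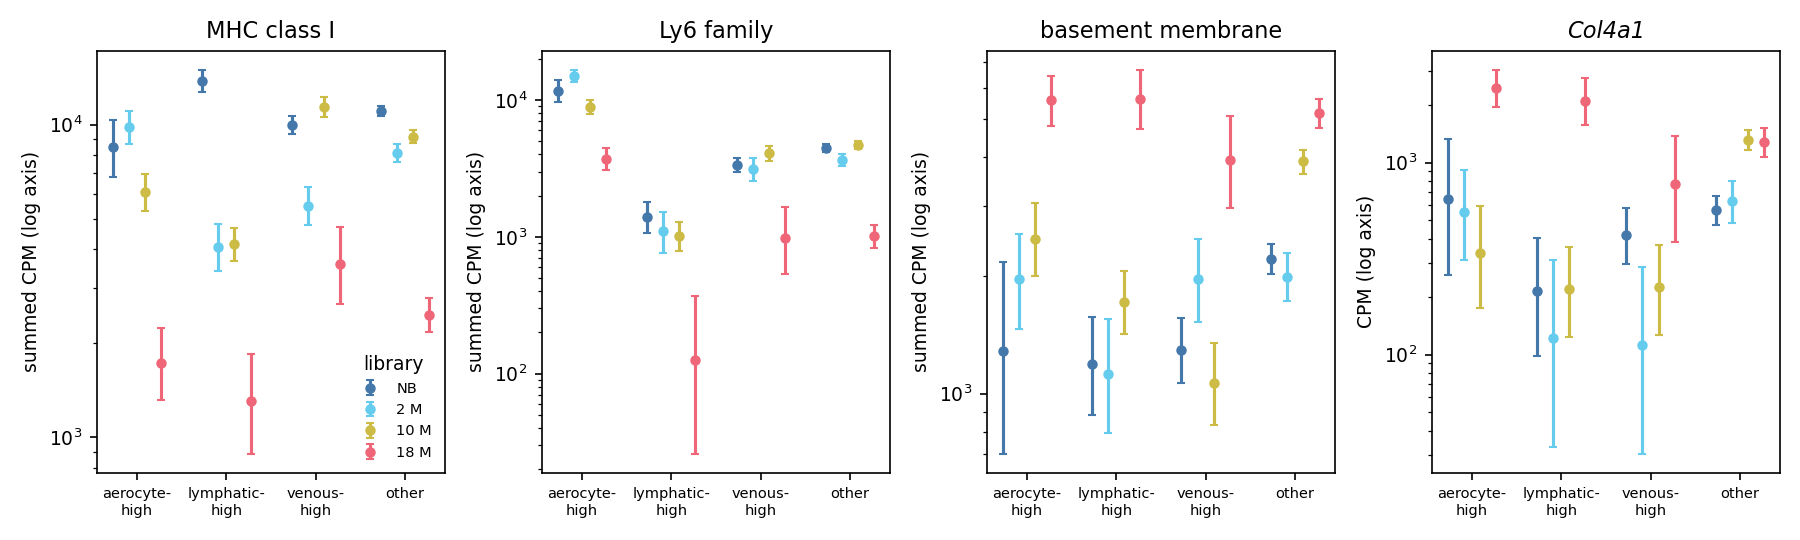
Summed CPM (log axis) of the MHC class I, Ly6 and basement membrane lists and CPM of Col4a1 in aerocyte-high, lymphatic-high, venous-high and other endothelial cells of each library, with exact 95% Poisson intervals. Class I lies lowest in the library labelled 18 M in all 4 groups of cells (1734 CPM in its aerocyte-high cells, against 9843 CPM in 2 M).

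Eln, the elastin gene (chromosome 5, 134702593 to 134747323), had the largest ratio among genes in at least 10 cells. It stood at 46.6 CPM at NB, 293 at 2 M, 119 at 10 M and 7246 in the library labelled 18 M, a ratio of 24.7 (18.9 to 32.8). A single cell labelled 18 M held 829 of its 1284 UMIs, with no Acta2 or Tagln UMI, and the next cells held 149, 89 and 83. Without the cell richest in Eln in each library the ratio was 12.7, and without the Xist cells it was 39.2. Elastin was higher in other cells of that library as well, at 33784 CPM in its mural cells (1073 CPM in 2 M) and 20280.4 CPM in its fibroblasts (2787 CPM in 2 M), and at 32.9 CPM in its B cells. The part of mural or fibroblast RNA in the endothelial value was not tested. Among smooth muscle markers Tagln went the other way, with 16.9 CPM in the library labelled 18 M and 159 CPM in 2 M.

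Sox4, a transcription factor of progenitor and migrating cells (chromosome 13, 28948919 to 28953713), stood at 145 CPM at NB, 129 at 2 M, 221 at 10 M and 1084 in the library labelled 18 M, a ratio of 8.42 (5.54 to 13.3), or 10.0 without Xist cells. It was spread over 20 of the 22 cells, and 41.4% of B cells of that library also held it, at 273 CPM. Fstl1, a secreted follistatin-like protein, stood at 139.7 CPM at NB, 103 at 2 M, 91.6 at 10 M and 581 in the library labelled 18 M. Gxylt2, a xylosyltransferase that acts on Notch receptors, Nrep and the BCL6-related repressor Bcl6b were past 2-fold higher with 42, 29 and 32 UMIs in the library labelled 18 M against 2, 2 and 5 in 2 M. The imprinted genes Mest and H19, which in the mouse are abundant in fetal and newborn tissue, had 2 and 0 UMIs at NB, 6 and 2 at 2 M, 2 and 1 at 10 M and 35 and 43 in the library labelled 18 M. H19 had 43 UMIs there, of which 39 were in a single cell, and 42 were in cells with Xist UMIs.

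**Figure D5:**
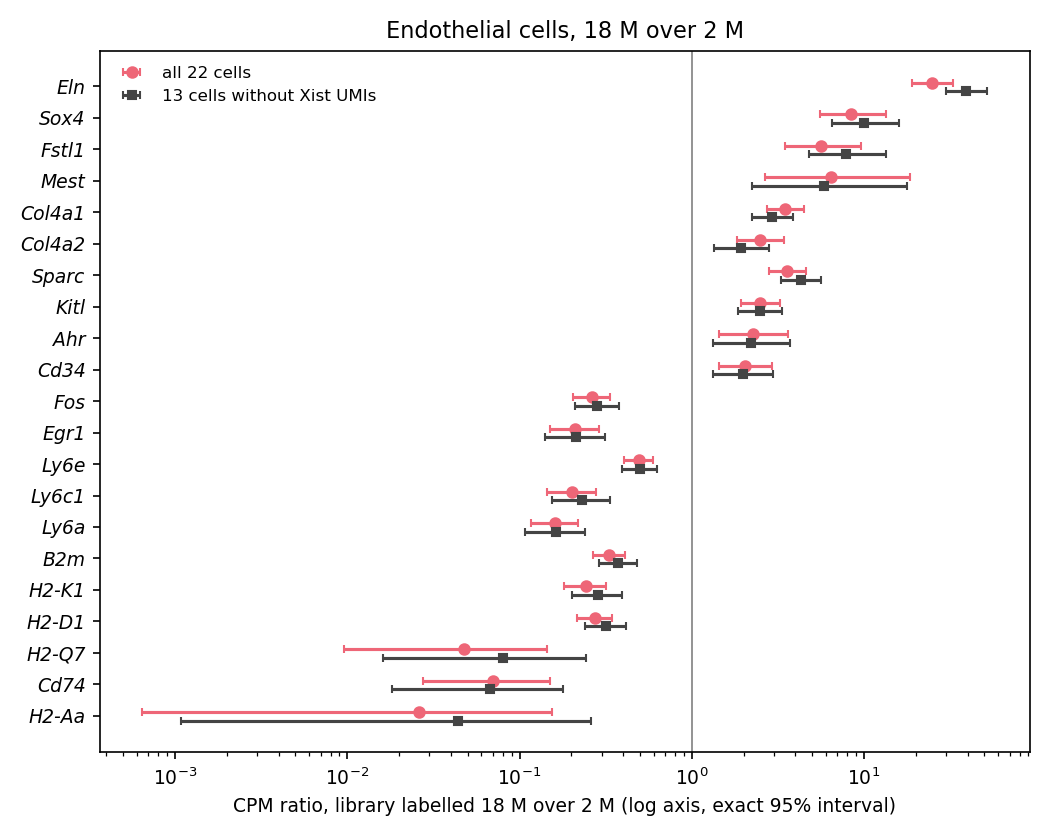
CPM ratio of the library labelled 18 M over 2 M on a log axis for 21 genes, with exact 95% intervals, for all 22 cells (circles) and for the 13 cells without Xist UMIs (squares). Eln (24.7), Sox4 (8.42) and Col4a1 (3.47) lie to the right of 1 and the MHC and Ly6 genes to the left, with and without the Xist cells.

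Of the 27 genes of endothelial identity outside the rule, 2 were past 2-fold higher and none lower, near the share of all genes (9.81% higher and 4.8% lower): Fli1, an ETS factor, with a ratio of 2.19 (1.25 to 3.96), or 2.31 without Xist cells, and Cd34, a sialomucin, with a ratio of 2.04 (1.44 to 2.93), or 1.99 without Xist cells. The list's median log2 ratio was -0.12, against 0.17 over all genes. Ahr, the aryl hydrocarbon receptor, which the study used as its endothelial marker, stood at 65.7 CPM at NB, 154 at 2 M, 91.6 at 10 M and 349.9 in the library labelled 18 M, a ratio of 2.27 (1.44 to 3.63), or 2.21 without Xist cells, and its target Tiparp had a ratio of 2.25 (1.79 to 2.86), or 2.55 without Xist cells. Cyp1a1, another target of the receptor, was not past 2-fold, with a ratio of 0.731 (0.452 to 1.17), or 0.730 without Xist cells. Kitl, the ligand of the receptor Kit, stood at 304 CPM at NB, 432 at 2 M, 388 at 10 M and 1078 in the library labelled 18 M, a ratio of 2.49 (1.92 to 3.26), or 2.48 without Xist cells, but as a mean over cells scaled to 10000 its log2 ratio was -0.06.

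Of 6 leukocyte adhesion genes compared, Vcam1 and Selp were past 2-fold lower in the library labelled 18 M and Cd34 higher. The shares over all genes were 4.8% lower and 9.81% higher. Vcam1, which binds leukocyte integrins on the venous wall, stood at 1778 CPM at NB, 535 at 2 M, 1132 at 10 M and 62.1 in the library labelled 18 M, a ratio of 0.116 (0.0562 to 0.216), or 0.0710 without Xist cells. Of 18 immediate early genes, which dissociation of tissue is known to induce, 6 were past 2-fold lower in the library labelled 18 M, with a median log2 ratio of -0.90. Fos, a subunit of AP-1, stood at 1356 CPM at NB, 1847 at 2 M, 1759 at 10 M and 485 in the library labelled 18 M and Egr1, a zinc finger factor, at 945 CPM at NB, 1286 at 2 M, 776 at 10 M and 271 in the library labelled 18 M. The list summed to 13657 CPM in the library labelled 18 M (15822 CPM without Xist cells) and 23878 CPM in 2 M, and the part of handling in this was not tested. Of 8 interferon-stimulated genes compared, Ifitm3 and Iigp1 were past 2-fold lower and Gbp2 higher, but Gbp2 had 71.0% of its UMIs in 1 cell. Without Xist cells none of these 3 genes was past 2-fold, with ratios of 0.606, 0.687 and 1.74. Cd36, a fatty acid transporter, had a ratio of 0.430 (0.335 to 0.549), or 0.389 without Xist cells.

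Transcription factors of endothelium were in part higher. Of 19 compared, 4 were past 2-fold higher in the library labelled 18 M and none lower, with a median log2 ratio of 0.58. Over all genes 9.81% were higher and 4.8% lower, with a median of 0.17. Ets2, an ETS factor, had a ratio of 2.25 (1.27 to 4.13), or 2.23 without Xist cells and Nr2f2, the factor of venous identity, of 2.19 (1.02 to 5.01), or 2.85 without Xist cells. Of 12 junction genes Ctnnb1, the beta-catenin of adherens junctions, was past 2-fold higher, near the 9.81% of all genes, with a ratio of 2.17 (1.52 to 3.14), or 2.04 without Xist cells. Of 8 lymphatic genes 4 were past 2-fold lower, among them Ccl21a, the chemokine that guides dendritic cells into lymph vessels. Its 115 UMIs in the library labelled 18 M came from 2 cells, and its 719 UMIs in 2 M from 3 cells. Lyve1, the hyaluronan receptor, was in more cells, 15 of 22 labelled 18 M and 18 of 32 in 2 M, with a ratio of 0.455 (0.352 to 0.584), or 0.629 without Xist cells.

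Among genes of clotting and its reversal, Plat, the tissue plasminogen activator, had 41 UMIs in the library labelled 18 M and 114 in 2 M, past 2-fold lower, but the ratio was 0.862 without the richest cell of each library.

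Other groups had counts that cannot be read apart from the share of all genes past 2-fold (9.81% higher and 4.8% lower). The 7 Notch genes compared had none, the 3 angiopoietin and Tie genes none, the 5 innate receptors none, and of 7 genes of VEGF signalling Pgf, placental growth factor, was the 1 past 2-fold, with 36 UMIs in 2 cells of the library labelled 18 M and 13 UMIs in 1 cell of 2 M, and it was lower without Xist cells. Cdkn1a, the p21 cell cycle inhibitor, stood at 1411 CPM at NB, 1122 at 2 M, 1555 at 10 M and 971 in the library labelled 18 M, a ratio of 0.865 (0.704 to 1.06), or 0.956 without Xist cells. Cdkn2a, a gene associated with senescence, had 0 UMIs in all libraries. A chosen floor of 3 UMIs, which is not an interval, equals 8.22 CPM at NB, 15.4 at 2 M, 8.08 at 10 M and 16.9 in the library labelled 18 M.

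The comparison of 10 M with 2 M asked what differs by middle age. Aerocyte genes were lower and venous genes higher in 10 M, and the MHC and Ly6 genes were not past 2-fold lower. Of 3203 genes compared, 212 were past 2-fold higher (6.62%) and 144 past 2-fold lower (4.5%), with a median log2 ratio of 0.10. Higher calls made up 59.6% of calls, and 48.2% without cells with 10% or more haemoglobin UMIs. None of the 4 class II genes and none of the 3 Ly6 genes were past 2-fold, and 1 of 12 class I genes was, Psmb8, higher, a subunit of the immunoproteasome with a ratio of 2.13 (1.22 to 3.94).

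Of 10 aerocyte genes compared, 9 were past 2-fold lower in 10 M, against 4.5% of all genes, with a median log2 ratio of -1.34. Car4, a carbonic anhydrase of the alveolar capillary surface (chromosome 11, 84957786 to 84966044), stood at 181 CPM in 10 M and 468 CPM in 2 M, a ratio of 0.386 (0.277 to 0.534). Ednrb, an endothelin receptor, stood at 205 CPM in 10 M and 489 CPM in 2 M, a ratio of 0.419 (0.306 to 0.572). Aerocyte-high cells were 12 of 55 in 10 M and 12 of 32 in 2 M, and without the cells high in aerocyte or lymphatic genes the list's median was -0.44. Within aerocyte-high cells Car4 stood at 1779 CPM in 10 M and 3281 CPM in 2 M, but 1 cell of 10 M, in the cluster with Mgp and Gsn and near the 0.5% limit, held 51.9% of the UMIs of its group. Without the deepest cell of each group the levels were 2874 CPM (2126 to 3800) in 10 M and 3183 CPM (2477 to 4029) in 2 M, with intervals that overlap. Cyp4b1, a cytochrome of the list, had a ratio of 0.503 without its richest cells and was then not past 2-fold. Hopx, Clec14a and Gata6 were among the other genes past 2-fold lower, the last a zinc finger factor at 43.1 CPM in 10 M and 169.8 CPM in 2 M.

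Ptgs2, the inducible cyclooxygenase of prostaglandin synthesis (chromosome 1, 150100031 to 150108227), had the largest ratio among genes in at least 10 cells. It stood at 1512 CPM at NB, 61.7 at 2 M, 2619 at 10 M and 1411 in the library labelled 18 M, a ratio of 10 M to 2 M of 42.4 (24.2 to 82.4). Its UMIs were in 12 of 55 cells in 10 M and 3 of 32 in 2 M, and were concentrated in venous-high cells, at 14259 CPM in the 6 such cells of 10 M and 335 CPM in the 5 of 2 M. These cells lay in different clusters, 5 of the 6 in the venous-like cluster in 10 M and all 5 in the cluster with Mgp and Gsn in 2 M, and the venous-like cluster held 6 cells of 10 M and 1 of 2 M. The venous-high cells of 2 M had 0.287% to 3.45% of their UMIs in the arterial list, and those of 10 M 0.0118% to 1.64%. The venous-high groups may thus not hold like cells. Ptgs2, Selp, Vcam1, Slc6a2 and Procr are leading genes of the venous-like cluster, so their ratios and its cell counts are not separate results. The 2 M library is the one that stands apart in Ptgs2. Of 9 venous genes compared, Slc6a2, Prss23, Vcam1 and Selp were past 2-fold higher in 10 M, with a median log2 ratio of 0.94. The share of all genes past 2-fold higher was 6.62%. Without the richest cell of each library Vcam1 was no longer past 2-fold, with a ratio of 1.96, and as a mean over cells scaled to 10000 its log2 ratio was 0.02. Selp, the P-selectin that captures leukocytes, had 51.8% of its 10 M UMIs in 1 cell.

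Further genes past 2-fold higher in 10 M included Procr, the protein C receptor of the anticoagulant pathway, with a ratio of 4.82 (2.50 to 10.4), and Cxcl1, a neutrophil chemokine, with a ratio of 5.17 (3.14 to 9.09). Id1, a target of BMP signalling, had a ratio of 2.72 (2.02 to 3.72), and Plvap, which forms the diaphragms of fenestrae, of 2.17 (1.67 to 2.84). Stc1, the glycoprotein stanniocalcin, stood at 19.2 CPM at NB, 15.4 at 2 M, 110.5 at 10 M and 282 in the library labelled 18 M, past 2-fold higher in 10 M and also in the library labelled 18 M, both set against the same 2 M library. Of 12 genes of sprouting tip cells compared, Esm1, Plvap, Igfbp3 and Vim were past 2-fold higher and Apln past 2-fold lower. The shares over all genes were 6.62% higher and 4.5% lower. Esm1, the endocan of angiogenic vessels, had 71 UMIs in 4 cells of 10 M and 0 UMIs in 2 M, at least 12.4-fold higher against a floor of 3 UMIs in the 2 M sum. Of these UMIs 53.5% were in 1 cell, and 33 UMIs were left without it. Igfbp3 had 138 UMIs in 8 cells of 10 M and 21 UMIs in 2 cells of 2 M.

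Of 20 transcription factors, Ets2 and Bcl6b were past 2-fold higher in 10 M, and Sox7, Gata2 and Tbx3 past 2-fold lower. Over all genes 6.62% were past 2-fold higher and 4.5% lower. Sox7, a factor of vascular development, had a ratio of 0.499 (0.346 to 0.720), or 0.573 without its richest cells, when it was not past 2-fold, and Gata2, a factor of blood and vessel cells, of 0.457 (0.293 to 0.710). Among basement membrane genes Lama5, Lamb2, Lamc1 and Sparcl1 were past 2-fold higher and Fn1 lower, though Fn1 had a ratio of 0.746 (0.256 to 2.31) without its richest cells, while Col4a1 had a ratio of 1.82 (1.43 to 2.34).

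The comparison of 2 M with NB asked what separates young adult from 10-day-old endothelium, and its direction rests on the label of the NB library. Aerocyte transcripts were higher in 2 M, and class II, venous and guanylate-binding protein transcripts were lower. Of 3110 genes compared, 137 were past 2-fold higher in 2 M (4.41%) and 179 past 2-fold lower (5.76%), with a median log2 ratio of -0.08. Higher calls made up 43.4% of calls, 60.6% with median-ratio size factors and 57.4% without cells with 10% or more haemoglobin UMIs, so which direction held the most calls depends on the scaling.

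Of 8 aerocyte genes compared, 7 were past 2-fold higher in 2 M, against 4.41% of all genes, with a median log2 ratio of 1.75. Emp2, an epithelial membrane protein that aerocytes share, stood at 695 CPM in 2 M and 167 CPM in NB, a ratio of 4.16 (3.05 to 5.72). Car4 and Ednrb had ratios of 3.56 (2.48 to 5.16) and 3.30 (2.34 to 4.70), and Fibin, a secreted protein, of 6.49 (3.25 to 14.1). Without the cells high in aerocyte or lymphatic genes the list's median was 0.30. In aerocyte-high cells alone Car4 stood at 3281 CPM in 2 M and 2941 CPM in NB.

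Nrp1, a co-receptor for VEGF-A, had a ratio of 2.19 (1.80 to 2.66). Kdr, the main receptor, was a rule gene, and its levels of 921 CPM in 2 M and 299 CPM in NB describe the choice of the cells. Vegfc, the lymphatic growth factor, was past 2-fold lower in 2 M with 4 UMIs against 29 in NB. Klf2, a factor induced by shear flow, stood at 1024 CPM in 2 M and 359 CPM in NB, a ratio of 2.85 (2.28 to 3.59). Sema6a, Ceacam1 and Atp8a1 were among the other genes past 2-fold higher. Igfbp4 and Igfbp7, binding proteins of insulin-like growth factors, had ratios of 2.81 (2.09 to 3.78) and 2.48 (1.96 to 3.15). Igfbp5 was also past 2-fold higher, but its ratio was 1.01 without the richest cell of each library. Eln had a ratio of 6.30 (3.61 to 11.5), with 57 UMIs in 11 cells of 2 M and 17 UMIs in 9 cells of NB. Of 7 arterial genes, Hey1, a Notch target, Mgp, an inhibitor of calcification, and Fbln2, a matrix fibulin, were past 2-fold higher. Cxcl12 was past 2-fold lower. The shares over all genes were 4.41% higher and 5.76% lower. Hey1 had 65.0% and Fbln2 78.9% of their 2 M UMIs in 1 cell, and without its richest cells Hey1 had a ratio of 1.32 (0.426 to 3.84).

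All 6 class II genes compared were past 2-fold lower in 2 M than in NB, with a median log2 ratio of -1.65. Cd74 stood at 561 CPM in 2 M and 2715 CPM in NB, a ratio of 0.207 (0.168 to 0.252), and H2-Aa had a ratio of 0.376 (0.263 to 0.525). The share of a cell's UMIs in the class II list had a median of 0.351% in NB, and 45 of the 54 NB cells held at least 1 such UMI. Of 12 class I genes, H2-Q6, H2-T23, Psmb8 and Psmb9 were past 2-fold lower. Over all genes 5.76% were past 2-fold lower in 2 M. Gbp2, Gbp3 and Gbp4, interferon-induced GTPases, were also past 2-fold lower, with Gbp2 at 92.6 CPM in 2 M and 260.2 CPM in NB.

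Of 10 venous genes, 5 were past 2-fold lower in 2 M than in NB, against 5.76% of all genes, with a median log2 ratio of -1.12. The venous-like cluster held 1 cell of 2 M and 6 cells of NB, and the 5 venous-high cells of 2 M lay in the cluster with Mgp and Gsn. Vcam1 had a ratio of 0.301 (0.242 to 0.371), with 49.2% of its NB UMIs in 1 cell. Slc6a2, a noradrenaline transporter of lung veins, had 3 UMIs in 2 M and 61 in NB. Thbs1, the antiangiogenic thrombospondin, had a ratio of 0.184 (0.103 to 0.309), Ntrk2, a neurotrophin receptor, of 0.0916 (0.0107 to 0.353), and the chemokine Cxcl12 of 0.454 (0.329 to 0.618). Mki67 and Top2a, proliferation genes, had 26 and 35 UMIs in NB, all in 1 cell, and 0 and 2 UMIs in 2 M.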

How the data were processed

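Single lung cells were measured in 4 libraries, 1 per age. The authors made the deposited UMI counts per gene and barcode with Cell Ranger 3.0.2 on mm10 (GRCm38), and Seurat 2.0 is named for later steps, per the submitters' processing notes. The matrix header gives software version 3.1.0. The counts had not been normalized, and cells had been called before deposit. No doublet caller was run.

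UMIs of the chosen cells were summed by library. Total endothelial UMIs lay between 177198 and 371173. CPM values have exact Poisson intervals, ratios exact conditional binomial intervals and shares exact Clopper-Pearson intervals. Genes with at least 30 UMIs in both sums together were compared, 0.5 UMIs being added to each sum. A log2 ratio of at least 1 in size was called. With 1 library per age there was no test. B cells, mural cells and fibroblasts, picked by markers, gave levels for comparison. Cells were thinned to 1000 UMIs for subtype shares, and clustered by Leiden at resolution 1. Gene coordinates came from GENCODE on GRCm38 and promoters from RefSeq on GRCm38.p6.

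Named genes were the 6 rule genes, list members that could be compared, and for each comparison the 10 highest and 10 lowest log2 ratios among compared genes with UMIs in at least 10 cells of the higher library and an interval excluding 1, leaving out mitochondrial, ribosomal protein and unnamed Gm genes. The members and the 33 gene lists were chosen with earlier results of these data known. Alternatives changed the cell limits, the rule, the exclusion genes, the scaling, the pseudocount, the minimum and the thinning. The 0.5% limit, and the alternatives that leave out aerocyte-high and lymphatic-high cells, haemoglobin-rich cells, the richest cell of a gene or the deepest cell of a group, were set after seeing the data. A single list member is not reported here. Scripts were tested on simulated data. The tools were scanpy 1.11.5, leidenalg 0.10.2, python-igraph 0.11.9, scipy 1.17.1, numpy 2.4.6, pandas 2.3.3 and matplotlib 3.10.9 in Python 3.11.15.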

Additional observations from a re-analysis of the deposited data

Results flagged for a closer look

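Xist UMIs were found in 9 of the 22 endothelial cells of the library labelled 18 M, although its mice are labelled male. This is a signal in a gene that no comparison between ages used, and the other libraries had none among 54, 32 and 55 endothelial cells. In B cells of the same library 974 of 2466 cells held Xist UMIs, so the signal was not particular to endothelium.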

How the results depend on the processing

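With 1 library per age no library could be left out in turn. No paired analysis was possible because the groups compared share no replicate and have no test. The depth limits every statement on genes with few UMIs, 22 to 55 cells stand behind each sum, and no value carries a spread between mice.

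Of 180 gene values past 2-fold, 167 were still past it without Xist cells, 175 with median-ratio size factors, 160 without the exclusion genes, 160 without the richest cell of each gene, 146 without upper limits on genes and UMIs, and 135 without the cells high in aerocyte or lymphatic genes. The cause of the changes below was not tested.

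Without the exclusion genes the endothelial share of the library labelled 18 M was 0.418%, 349 genes were past 2-fold higher in it than in 2 M, and the medians were -1.29 for MHC class I and -0.18 for MHC class II. H2-Aa (0.33) and Selp (0.74) then changed sign on the log2 scale. Without upper limits 435 genes were past 2-fold higher in the library labelled 18 M, the class I median was -1.14, and Fabp4 in 10 M over 2 M was -0.32. Against 2 M and 10 M summed, 351 genes were higher and 279 lower in the library labelled 18 M, with Ptgs2 at -0.30 and Procr at -0.45. A further setting left out cells with 2 or more UMIs of marker genes of other lineages. The class II median in the library labelled 18 M over 2 M was then -2.30, and the aerocyte median in 2 M over NB was 2.40. Without Xist cells Pgf was -2.29.

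As a mean over cells, 190 genes were lower in the library labelled 18 M, 344 higher and 231 lower in 10 M than in 2 M, and 304 higher and 338 lower in 2 M than in NB, with Kitl at -0.057 in the library labelled 18 M over 2 M. A minimum of 1 UMI gave 2550 higher and 2464 lower (18 M over 2 M), 1699 and 2071 (10 M over 2 M), and 2253 and 1622 (2 M over NB). A minimum of 100 UMIs gave 37 and 39, 40 and 25, and 29 and 37 in the same order.

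Without the cells high in aerocyte or lymphatic genes, 67 genes were lower in 10 M than in 2 M and 66 higher in 2 M than in NB, and the aerocyte medians were -0.44 and 0.30. The log2 ratios that changed sign were Ccl21a 0.16, Reln 0.16 and Maf 3.62 (18 M over 2 M), Ednrb 1.24, Apln 1.81, Chst1 0.59 and Serpine2 -0.37 (10 M over 2 M), and Fibin -0.37, Car4 -1.42, Ednrb -0.83 and Ahr -0.23 (2 M over NB).

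The haemoglobin genes rest largely on a few cells of each library. For Hbb-bs, the richest 2 M cell held 6971 of 7012 UMIs, and the richest 10 M cell 2706 of 3211. Single NB cells held 2950 and 709 Hbb-bs UMIs, and a single cell labelled 18 M held 2187. Without haemoglobin-rich cells Hba-a2 was 4.02 and Hbb-bs 2.61 in 10 M over 2 M, and Hba-a2 -0.79 in 2 M over NB. With at least 4 rule genes they were 6.19, 5.21 and -6.45. Without the richest cell of each gene Hba-a2 was 4.02 and -4.44, Hbb-bs 2.61, Igfbp5 0.31 in 10 M over 2 M, and Top2a 2.50 in 2 M over NB.

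Subtype shares moved with the thinning. Without it, cells with 2 aerocyte genes made up 59.3% at NB, 62.5% at 2 M, 69.1% at 10 M and 86.4% in the library labelled 18 M, those with 2 venous genes 68.5%, 56.3%, 69.1% and 72.7% in that order, and those with 2 lymphatic genes 38.9% at NB and 54.5% in the library labelled 18 M. At 500 UMIs the venous share was 25.9% at NB and 9.09% in the library labelled 18 M, and with 3 venous genes it was 24.0% at NB, 6.90% at 2 M and 13.7% at 10 M.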

Other observations

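Basement membrane transcripts were also higher in other cells of the library labelled 18 M, with 10237 CPM in its mural cells against 6049 CPM in 2 M, and 19455 CPM in its fibroblasts against 10266 CPM in 2 M. Ly6 transcripts were lower in its fibroblasts, with 434 CPM in the library labelled 18 M against 804 CPM in 2 M. Split by sex genes, the endothelial cells labelled 18 M with Xist UMIs had 1768 CPM of MHC class I and 5262 CPM of basement membrane transcripts, those with Y-linked UMIs 2828 and 4487 CPM, and the 4 cells with neither 1899 and 7365 CPM.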
